A study of Arabidopsis thaliana with 15 samples.

Results

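Cells of the shoot apex of Arabidopsis thaliana labelled WUSp were compared with cells labelled CLV3n, on 5 of the 15 expression arrays of the series. The arrays were taken by their titles, 2 for WUSp and 3 for CLV3n. Named for genes of the meristem, WUSp carries the name of WUS, which marks the organizing centre, and the submitters describe CLV3n as cells without CLV3p. The other sorted groups, CLV3p and FILp with 3 arrays each, are set beside this comparison, and Protoplast_induced and Uninduced, with 2 arrays each, serve as a check on tissue handling. All sorted cells came from plants 24 days old, and the labels give no genotype, strain, reporter or sorting gate for any group. They state neither whether CLV3n still holds WUSp cells nor whether replicates are independent sorts, so p-values measure only the spread between these arrays, which may be technical.

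The shoot apical meristem is the source of all organs above ground. WUS, a homeodomain transcription factor made in the organizing centre, moves into the stem cells above it and keeps them in their state, and those stem cells secrete the peptide CLV3, which limits WUS expression in return. Leaves and flowers arise on the flanks, where auxin accumulates, boundary genes separate organs from the meristem, and YABBY genes mark the outer face of the organ, while the epidermis covers the whole apex. Cytokinin promotes WUS expression in the organizing centre.

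Signals are the authors' MAS5 values on a linear scale, without unit, and differences are WUSp minus CLV3n on the log2 scale, ± the standard error of a limma fit to the 11 sorted arrays. Of 15052 probe sets tested, 2883 passed an adjusted p of 0.05 (limma, Benjamini-Hochberg over all probe sets tested), 19.2%. Higher in WUSp were 1254 of them (8.33%) and lower 1629 (10.8%). At least 2-fold higher were 554 (3.68%) and at least 2-fold lower 900 (5.98%). The 2 WUSp arrays carry much of this count, which was 1035 without WUSp 1 and 1318 without WUSp 2. Centring each array on its median, which moved the median difference of all probe sets to 0.11 against -0.04, gave 1881 higher and 1182 lower, so that 61.4% of calls were higher in WUSp, against 43.5% as reported here. The number of arrays limits the precision throughout.

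**Figure D1:**
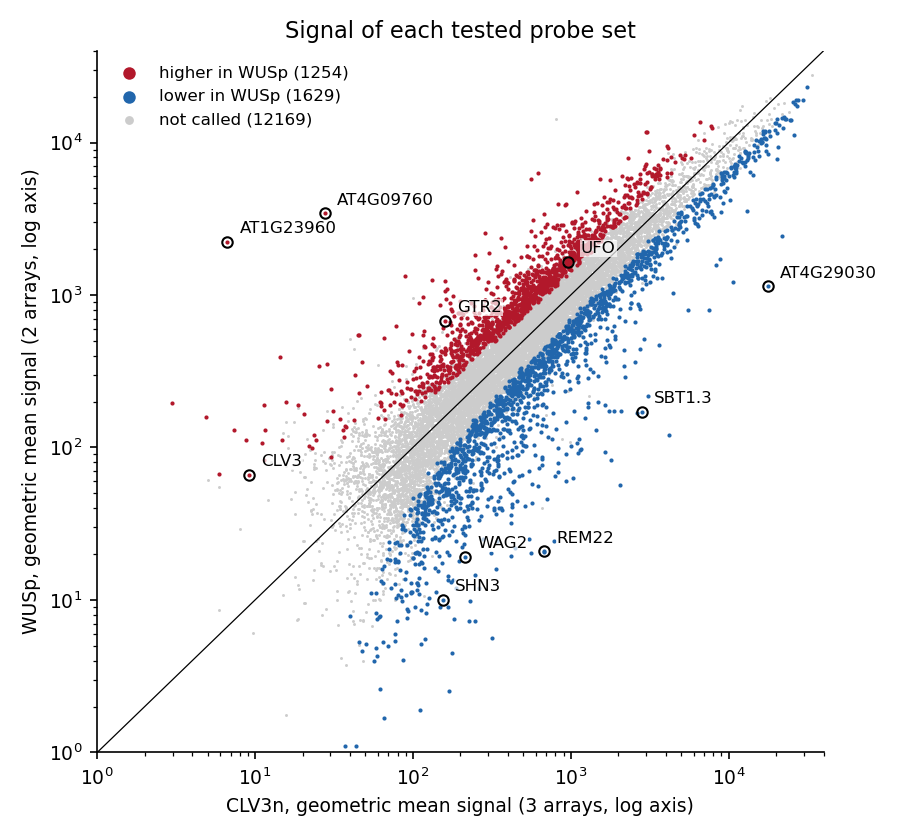
Geometric mean signal of every tested probe set in WUSp (2 arrays, vertical log axis) against CLV3n (3 arrays, horizontal log axis), with the line of equal signal. Red points are the 1254 probe sets higher in WUSp and blue points the 1629 lower at an adjusted p of 0.05, and circles mark 10 named genes, of which UFO was not called.

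The arrays differed in technical controls too. Spearman's correlation across tested probe sets was 0.981 between the 2 WUSp arrays, 0.952 to 0.962 among the CLV3n arrays, and 0.893 to 0.92 between a WUSp and a CLV3n array. WUSp had the lowest large ribosomal RNA control signal of the sorted arrays, 18503 and 18406 against 24420 to 36195 in CLV3n, and the lowest poly-A spike controls, with mean log2 signals of 6.98 and 6.95 against 8.37 to 8.50 in CLV3n. The hybridisation control bioC was high on both WUSp arrays and on CLV3n 1 and 2 (798 to 1077) and low on CLV3n 3 (355). It was also high on CLV3p 1 and 2 (1223) and low on CLV3p 3 (362) and all FILp arrays (293 to 341). Differences between WUSp and FILp therefore cannot be told apart from this split. No label names a batch, and the arrays were split here at a bioC signal of 500. Within the arrays above it, called the high bioC batch below, 2426 probe sets passed the test, 1072 higher and 1354 lower. Of the RNA quality ratios between transcript ends, ubiquitin was lower in WUSp, with log2 values of 0.74 and 1.04 against 1.305 to 2.32 in CLV3n. For actin, 1 pair of probe sets gave 2.38 and 2.45 in WUSp against 2.44 to 4.203 in CLV3n, and another pair 7.14 and 7.28 against 6.48 to 6.67. The part of these controls in the differences below was not tested.

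Material labelled Protoplast_induced, read here as apices after protoplast preparation, was compared with Uninduced on 4 other arrays. Of the 1190 probe sets higher in WUSp and tested there too, 236 (19.8%) were higher in Protoplast_induced and 94 (7.9%) lower. Of the 1501 lower in WUSp, 124 (8.26%) were higher and 268 (17.9%) lower. Over all 13582 probe sets tested in both fits, 10.2% were higher and 11.7% lower. The part of protoplasting in the differences between sorted cells was not tested, and the genes named below that were called in both comparisons are listed here. Of those higher in WUSp, GTR2, OPCL1, atpB, AT1G26680 and AT3G15650 were higher in Protoplast_induced too, with log2 differences from Uninduced of 1.34, 2.08, 1.13, 0.80 and 0.58. LUL1, PHV, RCA, SIR, UGT84A1, UGT78D2 and UGT71B1 were lower there, by values between -0.69 and -0.44. Of those lower in WUSp, ROXY1, PUCHI, UGT78D1, HTB1, SBT1.3, NRPB9A and AT4G29030 were lower in Protoplast_induced too, with differences between -0.91 and -0.28, and rps4 was higher by 0.68.

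WUS itself was not analysed here, since the gene table names no probe set for it. UFO and GTR2 were read in its place, which cannot establish that the cells labelled WUSp are organizing centre cells. UFO encodes an F-box protein of the meristem centre that acts with LFY in flowers, and GTR2 a transporter of glucosinolates, the sulfur-rich defence compounds of the cabbage family. UFO had signals of 1789.7 and 1525 in WUSp, against 767, 798 and 1474 in CLV3n. Every WUSp array lay above every CLV3n array, but CLV3n 3 came close. The difference of 0.77 ± 0.27 did not pass the test (adjusted p = 0.0605, limma). Within the high bioC batch it was 1.08 with an adjusted p of 0.00637, and without CLV3n 3 the adjusted p was 0.00728. With all arrays kept, UFO passed with the replicate block (difference 0.97, adjusted p = 0.00395), the bioC batch block (0.00304), array weights (0.0329), median centring (0.0377) and the fit of all 15 arrays (0.0384). In all, UFO passed in 7 of 19 alternatives and did not pass in 12, with differences between 0.61 and 1.08. Its geometric mean was 1208 in CLV3p, which did not differ from WUSp by the test (adjusted p = 0.255), and 138 in FILp, from which WUSp differed by 3.58 (adjusted p = 3.24e-07).

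GTR2 had signals of 707 and 655 in WUSp, against 208, 163 and 119 in CLV3n. The groups did not overlap, and GTR2 was 4.27-fold higher in WUSp, a log2 difference of 2.09 ± 0.64 (adjusted p = 0.0352, limma). In CLV3p and FILp its geometric means were 45.9 and 32.2, both called lower than WUSp. The call against CLV3n was lost on leaving out any of the 5 arrays, with adjusted p between 0.0548 and 0.177, with the replicate block (0.0509) and with plain eBayes (0.0608).

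The stem cell peptide gene CLV3 had signals of 58.0 and 76.1 in WUSp, against 12.2, 9.27 and 6.73 in CLV3n. All 3 CLV3n arrays lay under the floor of 19.5, a low-signal limit set at the 20th percentile of all values, and both WUSp arrays lay above it. Low CLV3 is part of how CLV3n is described, as cells without CLV3p, so the CLV3 difference is no independent result about WUSp. The difference was 2.86 ± 0.72 (adjusted p = 0.0126), or 1.77 with signals under the floor raised to it. On the WUSp and CLV3n arrays alone CLV3 did not pass the filter on low signal, so it was tested only through its signal in CLV3p. The geometric mean in CLV3p was 876, and WUSp was lower than CLV3p (difference -3.72, adjusted p = 0.00161). The call against CLV3n was lost without WUSp 1 (adjusted p = 0.0814), without WUSp 2 (0.115) and with the stricter filter on low signal (0.07).

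Of 5 listed regulators of stem cells and the meristem, all tested, 2 were higher in WUSp and none lower, with a median difference of 0.28 beside -0.04 for all probe sets. Over all probe sets 8.33% were higher and 10.8% lower, and every list count here and below is to be read beside these shares. The members called were SPT and CLV3, and low CLV3 is part of how CLV3n is described. On the WUSp and CLV3n arrays alone, 4 of the 5 were tested, without CLV3, and 1 was higher. SPT, a bHLH transcription factor of carpel margins, had 3385 and 2878 in WUSp, against 1685, 1388 and 1380 in CLV3n. It was 2.11-fold higher in WUSp, by 1.08 ± 0.18 (adjusted p = 0.000689), and this call held in every alternative tried. The geometric mean of SPT was 3641 in CLV3p and 329 in FILp. ULT1, a regulator of meristem size, POL, a phosphatase of the CLV3 pathway, and OBE1, a PHD finger protein needed for meristems, differed by -0.08, 0.03 and 0.28 and were not called.

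**Figure D2:**
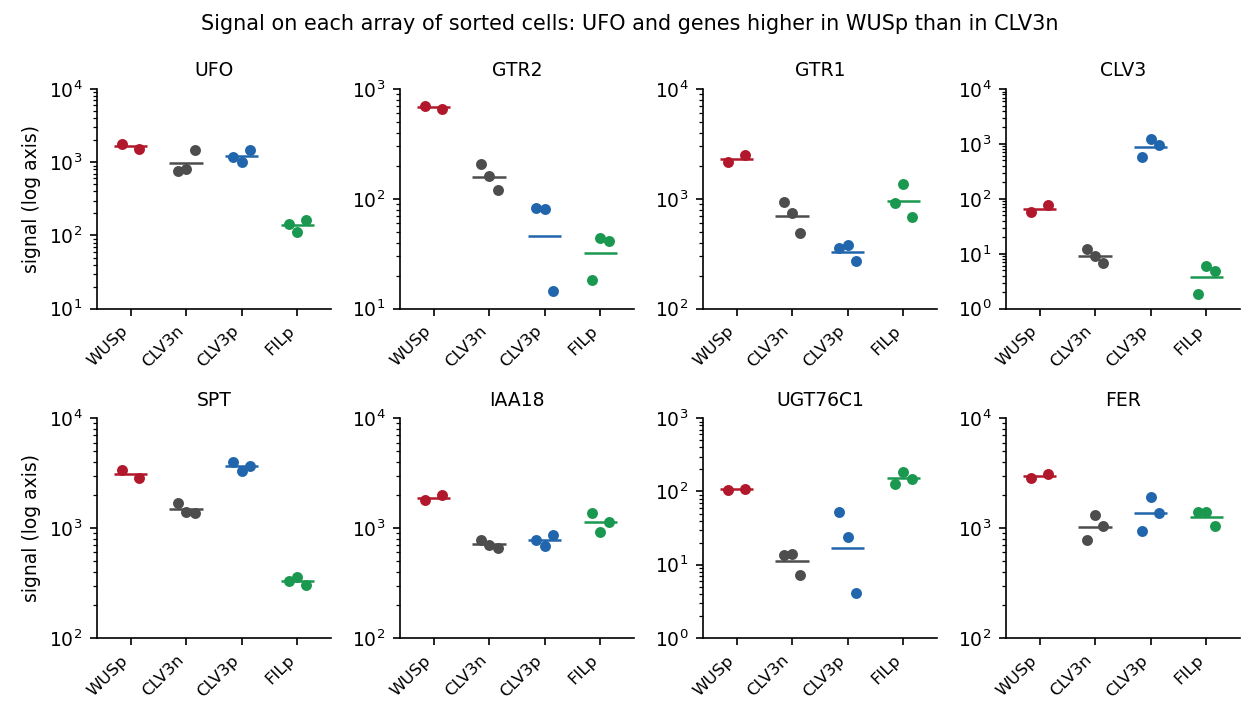
Signal on each array (points, log axis) and geometric mean (line) of UFO and 7 genes higher in WUSp than in CLV3n, in WUSp (2 arrays) and in CLV3n, CLV3p and FILp (3 arrays each). WUSp lies above CLV3n in all 8 panels, with one CLV3n array close to it for UFO, while CLV3 peaks in CLV3p and UGT76C1 is at a like level in FILp.

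Genes of organ boundaries, organ polarity and organ growth were mostly lower in WUSp. Of 10 tested members of 16, 6 were lower and 1 higher, with a median difference of -1.77 beside -0.04 for all probe sets, and 3 were lower without WUSp 1. PTL, a trihelix factor of the boundaries between sepals, had 28.6 and 59.998 in WUSp, against 288, 254 and 353 in CLV3n. It was lower in WUSp (difference -2.84 ± 0.45, adjusted p = 0.000548). LAS, a GRAS factor needed for axillary meristems, had 59.9 and 50.8 in WUSp, against 177, 216 and 166 in CLV3n (difference -1.75 ± 0.33, adjusted p = 0.00203). No WUSp array of either gene reached a CLV3n array.

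Both YABBY genes on the list, which act in the outer side of organs, were lower in WUSp as well. YAB3 had 45.9 and 24.4 in WUSp, against 219, 130.0 and 161 in CLV3n (difference -2.31 ± 0.46, adjusted p = 0.00316). YAB5 had 7.80 and 31.0 in WUSp, against 120.4, 145 and 170 in CLV3n (difference -3.21 ± 0.73, or -2.55 floored, adjusted p = 0.00724). Their FILp geometric means were 397 and 450 and their CLV3p means 34.3 and 6.10, so WUSp lay near CLV3p and under CLV3n. SHI, a zinc finger protein that activates auxin synthesis genes, and NGA2, a B3 factor of leaf and carpel margins, were lower, with differences of -1.80 and -1.96. PHV, an HD-ZIP III factor of the inner organ side and of the meristem, was the member that was higher, with 1891 and 1946 in WUSp, against 1205, 1193 and 1249 in CLV3n (difference 0.66 ± 0.17, adjusted p = 0.0151). Without WUSp 1 the calls of YAB5 (adjusted p = 0.121), NGA2 (0.115), SHI (0.0589) and PHV (0.0928) were lost, and without WUSp 2 those of YAB3 (0.0519) and PHV (0.0993). YAB5 was not called within the high bioC batch (0.11).

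Among genes of floral meristems and flowering, 2 of 9 tested members were higher and 2 lower, beside 8.33% and 10.8% of all probe sets. The median was -0.41, and with protoplasting calls removed 2 of 6 were higher and none lower. ROXY1, a glutaredoxin needed for petal initiation, had 335 and 577 in WUSp, against 1752, 3290.1 and 3647 in CLV3n. It was 6.27-fold lower in WUSp (difference -2.65 ± 0.31, adjusted p = 5.36e-05). PUCHI, an AP2-type factor of early flower buds, had 81.9 and 158 in WUSp, against 665, 993 and 662 in CLV3n (difference -2.74 ± 0.39, adjusted p = 0.000312). ROXY1 reached 8677 in FILp, while PUCHI reached 632 there and 100.2 in CLV3p. SEU, a transcriptional co-regulator of floral genes, and AGL24, a MADS-box factor that promotes flowering, were higher by 0.97 ± 0.30 (adjusted p = 0.0357) and 0.87 ± 0.28 (adjusted p = 0.0413). In all, SEU lost its call in 5 of 19 alternatives and AGL24 in 8, AGL24 also within the high bioC batch (0.123). Both calls were lost without WUSp 1 (0.18 for SEU and 0.104 for AGL24), without WUSp 2 (0.14 and 0.256), without CLV3n 1 (0.108 and 0.068) and without CLV3n 2 (0.0785 and 0.0795), and that of AGL24 also without CLV3n 3 (0.0796).

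Of 4 tested epidermis and cuticle genes, 2 were lower in WUSp and none higher (median -1.96). CR4, a receptor kinase of the epidermis, had 163 and 170.3 in WUSp, against 437, 458 and 476 in CLV3n (difference -1.46 ± 0.19, adjusted p = 0.000129). SHN3, an AP2-type factor of the cuticle, had 6.32 and 15.97 in WUSp, against 203, 110.3 and 166 in CLV3n. Both WUSp values of SHN3 were under the floor, and the floored difference was -2.99 (adjusted p of the unfloored fit 2.22e-05). CR4 and SHN3 were lower in WUSp than in CLV3p and FILp as well, with differences of -1.91 and -1.73 for CR4 and floored differences of -4.70 and -1.64 for SHN3. RST1, a protein of wax and embryo development, differed by 0.01, and WSD1, a wax ester synthase, by -2.47 ± 1.308 (adjusted p = 0.214). WSD1 was called lower in 3 of 19 alternatives. These were floored signals (adjusted p = 0.00281, limma), WUSp and CLV3n arrays only (0.00556), and the fit without CLV3n 1 and CLV3p 1 (0.0227).

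Summed signals of markers of other cell types differed in direction. For CR4 and SHN3 together the sums were 169 to 186 in WUSp and 568 to 642 in CLV3n, for YAB3 and YAB5 53.7 to 55.4 and 275 to 340, and for LAS and PTL 88.5 to 111 and 465 to 519, with SHN3 and the lower YAB5 array of WUSp under the floor. The mesophyll genes LHCB4.1, PRK, RCA and PORB summed to 6829 to 7836 in WUSp and 4656 to 5534 in CLV3n, whereas the wider list of nuclear photosynthesis genes described further on had a median difference of 0.04. The stomatal genes SPCH, MUTE, FMA and STOMAGEN did not pass the filter on low signal. SPCH and MUTE lay under the floor on both WUSp arrays, on CLV3n 2 and 3, and on every CLV3p and FILp array. FMA had 43.8 and 13.3 in WUSp, against 86.3, 93.4 and 58.4 in CLV3n. No difference is given for these stomatal genes. In sorted bulk samples, fewer cells of a type and less RNA of a gene per cell cannot be told apart.

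**Figure D3:**
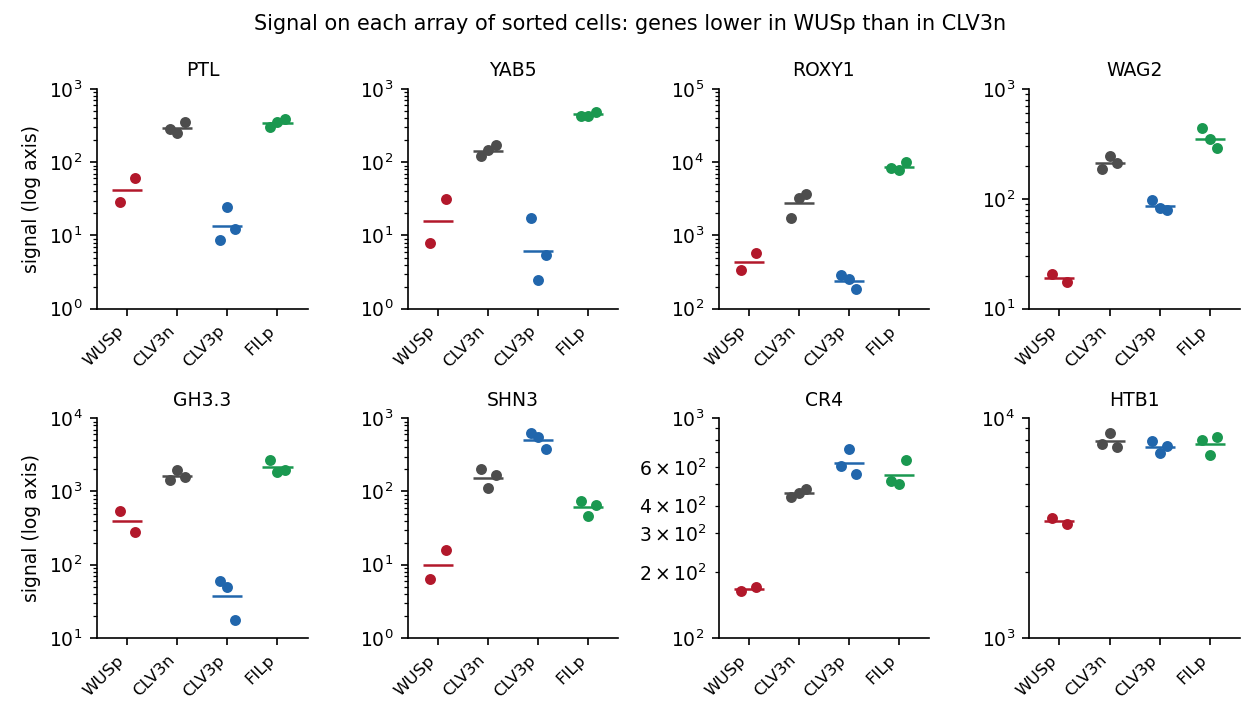
Signal on each array (points, log axis) and geometric mean (line) of 8 genes lower in WUSp than in CLV3n, in WUSp (2 arrays) and in CLV3n, CLV3p and FILp (3 arrays each). PTL, YAB5, ROXY1 and GH3.3 are high in FILp and low in CLV3p, whereas CR4, SHN3 and HTB1 are lower in WUSp than in all 3 other populations.

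Auxin genes were mostly lower in WUSp. Of 15 tested members of 24, 9 were lower and 1 higher (median -1.52), with 4 lower without WUSp 1 and 5 without WUSp 2. WAG2, a kinase that directs auxin transporters, had 20.9 and 17.7 in WUSp, against 187, 245 and 211 in CLV3n. WUSp 2 was under the floor, and the floored difference was -3.40 (adjusted p of the unfloored fit 1.58e-06). WAG2 was also lower than in CLV3p (floored -2.09) and in FILp (floored -4.13). GH3.3, an enzyme that joins auxin to amino acids, had 549.9 and 276 in WUSp, against 1439, 1942 and 1579.6 in CLV3n (difference -2.07 ± 0.44, adjusted p = 0.00694). Unlike WAG2, GH3.3 was higher in WUSp than in CLV3p, where its mean was 37.4.

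The auxin synthesis enzymes YUC4 and YUC2, flavin monooxygenases, were both lower. YUC4 had 167 and 205 in WUSp, against 533, 437 and 669.8 in CLV3n (difference -1.54 ± 0.24, adjusted p = 0.000584). YUC2 had 57.8 and 119 in WUSp, against 279, 218 and 221 in CLV3n (difference -1.52 ± 0.38, adjusted p = 0.0122). The Aux/IAA genes IAA29, IAA20 and IAA30, relatives of the repressors of auxin response, were lower, with a floored difference of -2.27 for IAA29 and differences of -1.97 and -1.304 for the others. The call of IAA20 was lost in 5 of 18 alternatives, among them quantile normalization (adjusted p = 0.0546). SHI, named above, and GH3.17, a relative of GH3.3 (difference -1.91 ± 0.62, adjusted p = 0.0422), completed the 9. IAA18, an Aux/IAA repressor, was the member that was higher, with 1792 and 1989 in WUSp, against 772, 707 and 654 in CLV3n (difference 1.41 ± 0.19, adjusted p = 0.000159). IAA18 was higher in WUSp than in CLV3p, by 1.29, and FILp, by 0.75. Its call and those of WAG2 and IAA29 held in every alternative, while GH3.3 lost its call without WUSp 2 (adjusted p = 0.0818) and IAA20 without WUSp 1 (0.159), WUSp 2 (0.0556) or CLV3n 2 (0.0525) and within the high bioC batch (0.122). The call of YUC2 was lost without WUSp 1 (0.19), that of IAA30 in 10 of 18 alternatives (adjusted p up to 0.226, without WUSp 1) and that of GH3.17 in 9 of 19, among them each array left out (0.0519 to 0.246).

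Of 4 tested cytokinin genes, 2 were higher in WUSp and none lower (median 1.23). Both encode glucosyltransferases that inactivate cytokinins. UGT76C2 had 1271 and 1372 in WUSp, against 544, 486 and 525 in CLV3n (difference 1.35 ± 0.22, adjusted p = 0.000782), and its mean was 1037 in CLV3p and 495 in FILp. UGT76C1 had 106 and 108 in WUSp, against 13.7, 13.9 and 7.18 in CLV3n (difference 3.27 ± 0.87, or 2.46 floored, adjusted p = 0.0167). All CLV3n values of UGT76C1 were under the floor, and FILp, at 151, did not differ from WUSp by the test (adjusted p = 0.77). Its call was lost without WUSp 1 (0.118) or WUSp 2 (0.106). ARR15, a response regulator that dampens cytokinin signalling, had 111 and 283 in WUSp, against 49.9, 103 and 107 in CLV3n and was not called (difference 1.12 ± 0.42, adjusted p = 0.0759), though it was in 6 of 18 alternatives.

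Sulfur and glucosinolate genes were more often higher, 5 of 11 tested members against 1 lower, with a median of 0.80, but 2 were higher without WUSp 1, 2 without WUSp 2 and 3 without CLV3n 3. GTR1, the paralogue of GTR2, had 2177 and 2483 in WUSp, against 941, 743 and 493 in CLV3n. It was 3.32-fold higher in WUSp (difference 1.73 ± 0.29, adjusted p = 0.00113), and unlike that of GTR2 its call held in every alternative. APS3, an ATP sulfurylase, SIR, the sulfite reductase, and HMT-1, a homocysteine methyltransferase, were higher by 1.03, 0.80 and 0.73. APS4, another ATP sulfurylase, was lower, with 241 and 133 in WUSp, against 459, 526 and 252 in CLV3n (difference -1.14 ± 0.38, adjusted p = 0.0485). HMT-1 lost its call in 10 of 19 alternatives, up to an adjusted p of 0.337 without WUSp 2. The call of APS3 was lost without WUSp 1 (0.0658) and that of SIR without WUSp 2 (0.185), and APS4 lost its call in 9 of 19 alternatives, up to an adjusted p of 0.359 without WUSp 2. MGL, a methionine-degrading enzyme, had the largest difference of the list, 3.70 ± 1.25, and did not pass the test (adjusted p = 0.0509), though it did in 9 of 19 alternatives.

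Enzyme families for small molecules differed in direction. Of 20 tested UDP-glycosyltransferases, which attach sugars to small molecules, 6 were higher and none lower (median 0.45), but 3 without WUSp 1 and 3 without WUSp 2. These 20 leave out relatives placed on the flavonoid list described next. Of those, UGT78D1, UF3GT and UGT72E2 were lower (differences -3.06, -1.42 and -0.95), and UGT84A1 and UGT78D2 higher (1.85 and 0.71). UGT71B1 had 1417 and 1129.6 in WUSp, against 396, 384 and 384 in CLV3n (difference 1.71 ± 0.22, adjusted p = 0.000102), and was higher in WUSp than in CLV3p and FILp by 2.23 and 1.73. Of 8 tested CYP71B cytochrome P450s, 3 were lower and none higher (median -0.72). CYP71B5 had 12.1 and 21.9 in WUSp, against 141, 78.9 and 148 in CLV3n (floored difference -2.52, adjusted p of the unfloored fit 0.000143), and CYP71B22 and CYP71B23 were lower, with floored differences of -2.43 and -1.99. CYP71B23 lost its call in 6 of 18 alternatives, among them the high bioC batch (0.177) and quantile normalization (0.052). It was also lost without CLV3n 1 (0.0651), CLV3n 2 (0.0541) or CLV3n 3 (0.0501). Without WUSp 1 the unfloored difference of CYP71B23 was -1.53, against -3.04 with all arrays.

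Flavonoid and phenylpropanoid genes split, with 3 of 9 tested members higher and 4 lower. With protoplasting calls removed, 3 members were left, none higher and 2 lower. Without WUSp 1 there were 2 higher and 1 lower, without WUSp 2 there was 1 higher and 2 lower, and without CLV3n 1 there were 3 higher and 2 lower. UGT78D1, which adds rhamnose to flavonols, had 57.5 and 173 in WUSp, against 651, 1184 and 747 in CLV3n (difference -3.06 ± 0.36, adjusted p = 7.3e-05). UGT78D2, which adds glucose to the same compounds, had 3449 and 3311 in WUSp, against 2025, 2032 and 2139 in CLV3n (difference 0.71 ± 0.18, adjusted p = 0.0115). UGT78D1 was at 1211 in CLV3p and 1156 in FILp, both called higher than WUSp. UGT84A1, a glucosyltransferase of hydroxycinnamic acids, was higher by 1.85 ± 0.38 (adjusted p = 0.00368). The call of UGT78D2 was lost without WUSp 1 (0.0985) or WUSp 2 (0.0632).

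**Figure D4:**
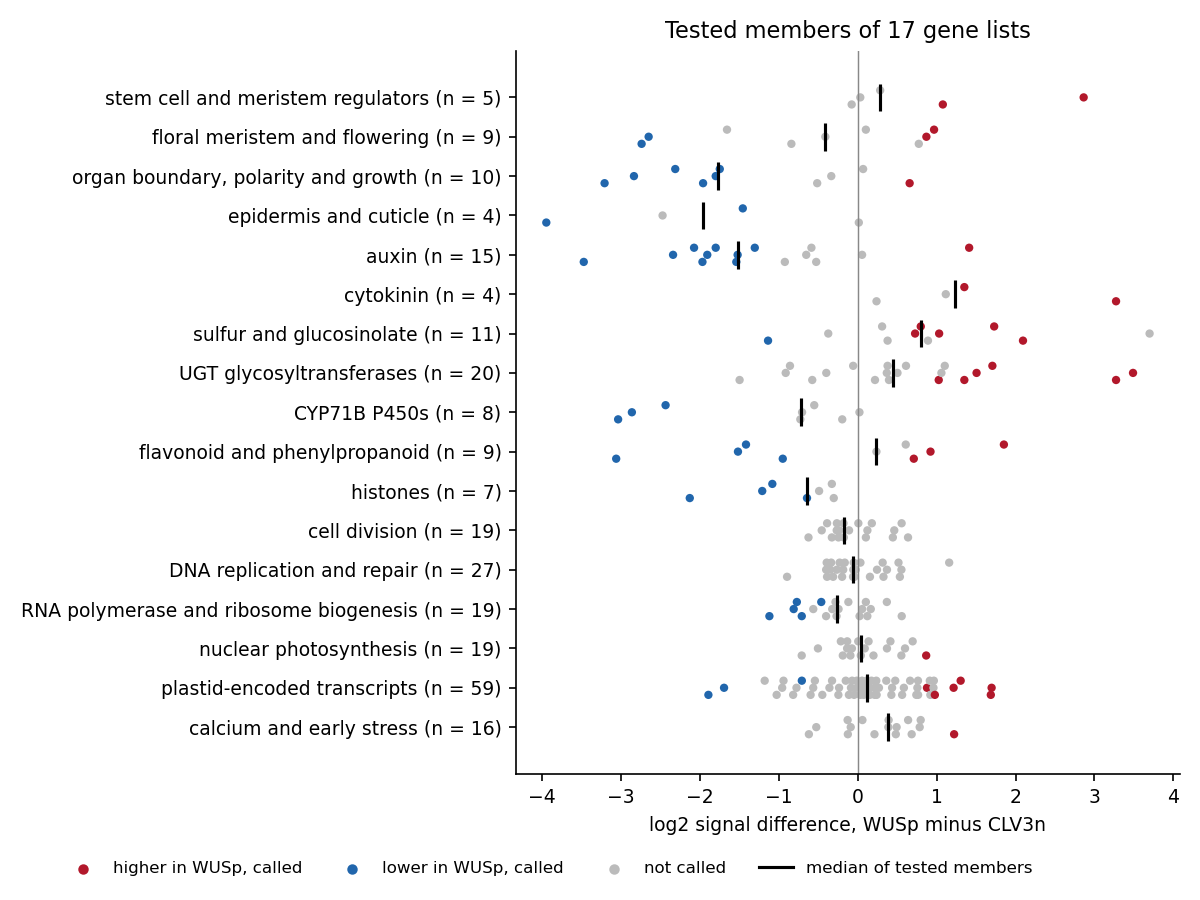
Log2 signal difference, WUSp minus CLV3n, of each tested member (point) of 17 gene lists, with the median of each list as a black bar. Members called higher (red) and lower (blue) at an adjusted p of 0.05 stand beside members not called (grey). Boundary, epidermis and auxin genes lie mostly below 0, and cell division and DNA replication genes lie around 0 with no call.

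Of 7 tested histone genes, 4 were lower in WUSp, 3 were not called and none was higher (median -0.64). Without WUSp 2 or without CLV3n 2, 2 were lower. HTB1, a histone H2B, had 3502 and 3286 in WUSp, against 7672, 8539.8 and 7374 in CLV3n. It was 2.31-fold lower in WUSp (difference -1.21 ± 0.15, adjusted p = 6.73e-05), and lower than in CLV3p and FILp (differences -1.13 and -1.17). HTB2 and HTB11, also H2B genes, were lower (differences -1.08 and -0.64), as was HIS1-3, a linker histone (floored -1.87). The call of HIS1-3 was lost in 3 of 17 alternatives, among them quantile normalization (adjusted p = 0.121). HTR12, the centromeric histone H3, differed by -0.33 (adjusted p = 0.241). HTB11 lost its call in 7 of 19 alternatives, among them those without WUSp 1 (0.207), WUSp 2 (0.108), CLV3n 2 (0.0602) or CLV3n 3 (0.078), and HIS1-3 without WUSp 2 (0.302) or CLV3n 2 (0.108).

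None of 19 tested cell division genes and none of 27 tested DNA replication and repair genes passed the test in limma, with medians of -0.18 and -0.06. At an unadjusted p under 0.05 there were 4 and 3, beside 5079 of all 15052 probe sets. No alternative called more than 2 division genes higher or 1 lower, or more than 1 replication gene. AUR1 and AUR2, mitotic Aurora kinases, differed by -0.46 (adjusted p = 0.0631) and 0.56 (adjusted p = 0.0619). RNA polymerase and ribosome biogenesis genes held 5 lower calls of 19 and none higher, but 1 without WUSp 1 and 2 without WUSp 2. NRPB9A, a subunit of RNA polymerase II, had 445 and 408 in WUSp, against 815.5, 1035 and 939.6 in CLV3n (difference -1.12 ± 0.25, adjusted p = 0.00696). Its call was lost without WUSp 2 (0.0632).

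Photosynthesis genes of the nucleus gave 1 call of 19, RCA, the Rubisco activase, with 2652 and 2645 in WUSp, against 1476, 1575 and 1315 in CLV3n (difference 0.87 ± 0.20, adjusted p = 0.00671). The median of the list was 0.04. Of 59 tested plastid-encoded transcripts, 6 were higher and 3 lower, beside 8.33% and 10.8% of all probe sets, and 3 were higher without WUSp 1. With the probe sets called in protoplasting removed, 4 of the 59 were left and none was called. atpB, a subunit of the plastid ATP synthase, was higher by 1.22 ± 0.23 (adjusted p = 0.0019), and rps4, a plastid ribosomal protein, was lower (difference -1.89, adjusted p = 6.57e-05). RCA lost its call without WUSp 1 (0.061) or WUSp 2 (0.0523).

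Calcium and early stress genes gave 1 call of 16, higher in WUSp, which is near the 8.33% of all probe sets called higher. Their median was 0.39. PUB24, a ubiquitin ligase, was higher by 1.22 ± 0.36 (adjusted p = 0.0274) and lost its call without WUSp 1 (0.174), WUSp 2 (0.109), CLV3n 2 (0.0509) or CLV3n 3 (0.0715). STZ, a zinc finger repressor, and WRKY53, a defence factor, differed by -0.09 and 0.48 and were not called. Of genes of other hormones, 3 of 12 were higher and none lower, beside 8.33% and 10.8% of all probe sets. Among them was OPCL1, an enzyme of jasmonate synthesis, higher by 1.03 ± 0.24 (adjusted p = 0.00931). SLY1, a gibberellin signalling gene left off this list, was lower (difference -0.80, adjusted p = 0.0189, limma) and kept its call in 16 of 19 alternatives. None of the 12 was called without WUSp 1, and 1 of 9 with protoplasting calls removed. OPCL1 lost its call without WUSp 1 (0.123).

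Single genes with large or steady differences include sugar transporters and receptors. SWEET1, a sugar transporter, had 1006 and 708 in WUSp, against 268, 277 and 292 in CLV3n (difference 1.60 ± 0.23, adjusted p = 0.000248). SWEET10 and SWEET11 of the same family were lower, with a floored difference of -3.72 for SWEET10 and a difference of -1.67 for SWEET11. The SWEET10 values were 58.4 and 8.20 in WUSp, against 479, 339 and 544 in CLV3n, with a wide gap between the WUSp arrays. FER, the receptor kinase FERONIA, had 2858 and 3081 in WUSp, against 772, 1319 and 1051 in CLV3n (difference 1.54 ± 0.28, adjusted p = 0.00166), and was higher in WUSp than in CLV3p and FILp by 1.12 and 1.22. SWEET11 lost its call without WUSp 2 (0.0624).

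The 15 genes with the largest positive floored differences, among called genes whose arrays do not overlap, mostly carry only a locus number. Every WUSp array lay above every CLV3n array in 23.2% of all tested probe sets and below in 27%. AT1G23960 had 2079.8 and 2398 in WUSp, against 5.88, 9.90 and 5.09 in CLV3n, a floored difference of 6.84 (adjusted p of the unfloored fit 1.34e-07). AT4G09760 had 3806 and 3116 in WUSp, against 43.1, 13.4 and 36.2 in CLV3n (floored 6.79, adjusted p = 1.38e-06). AT3G15650 had 5455 and 7253 in WUSp, against 650.1, 673 and 555 in CLV3n (difference 3.33 ± 0.25, adjusted p = 5.09e-07). For all 3 the groups stood far apart.

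The same genes differed in how they compare with the other populations. AT1G23960 was at 1820 in FILp and 12.7 in CLV3p, and LUL1, a RING-type ubiquitin ligase, at 423 in FILp and 37.7 in CLV3p, beside 563 and 538 in WUSp and 30.1 to 57.1 in CLV3n. Neither differed from FILp by the test (adjusted p = 0.77 and 0.546). AT1G26680, with 1404 and 1280 in WUSp, against 108, 41.7 and 157 in CLV3n, was at 1566 in CLV3p and 8.06 in FILp. AT4G09760, AT3G15650 and BGLU46, a beta-glucosidase, were higher in WUSp than in all 3 populations, BGLU46 by 2.73 against CLV3n, 3.499 against CLV3p and 3.33 against FILp. Of the 15, 11 were called higher than CLV3p and 7 than FILp. Over all probe sets, 24% were called against CLV3p and 15% against FILp, in either direction. The same WUSp arrays enter all 3 comparisons and the 15 were picked by 1 of them, so these counts are no independent support. BGLU46 lost its call against CLV3n without WUSp 1 (0.0534).

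REM22, a B3-type transcription factor, led the 15 genes with the largest negative differences. It had 19.98 and 22.03 in WUSp, against 573, 611 and 893 in CLV3n, 32.4-fold lower in WUSp (difference -5.02 ± 0.44, adjusted p = 2.43e-06). Its means of 55.5 in CLV3p and 31.1 in FILp were near those of WUSp. SBT1.3, a subtilisin-type protease, had 74.2 and 396 in WUSp, against 3537, 2421 and 2600.1 in CLV3n (difference -4.04 ± 0.52, adjusted p = 0.000388), and the abundant AT4G29030 had 589 and 2205 in WUSp, against 20037, 16629 and 16644 in CLV3n (difference -3.96 ± 0.39, adjusted p = 4.71e-05).

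SBT1.3 and AT4G29030 were lower in WUSp than in all 3 populations, with means of 2984 and 21676 in CLV3p and 3027 and 16321 in FILp. ATMYC1, a bHLH factor of epidermal cell fate, had 14.2 and 42.3 in WUSp, against 311, 364 and 352 in CLV3n (floored difference -3.57, adjusted p = 3.26e-06). WUSp 1 lay below WUSp 2 for 11 of the 15 genes, and for 524 of the 900 probe sets at least 2-fold lower (58.2%), and the SD of log2 signal of SBT1.3 was 1.71 in WUSp and 0.29 in CLV3n. Of the 15, 13 were called lower than CLV3p and 9 than FILp, beside 24% and 15% of all probe sets called in either direction. Here too the same WUSp arrays enter each comparison. The last gene inside each set of 15 had a floored difference of 2.68 (AT4G11200) or -3.57 (ATMYC1), and the first outside 2.63 (AT1G64270) or -3.57 (AT5G45960).

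**Figure D5:**
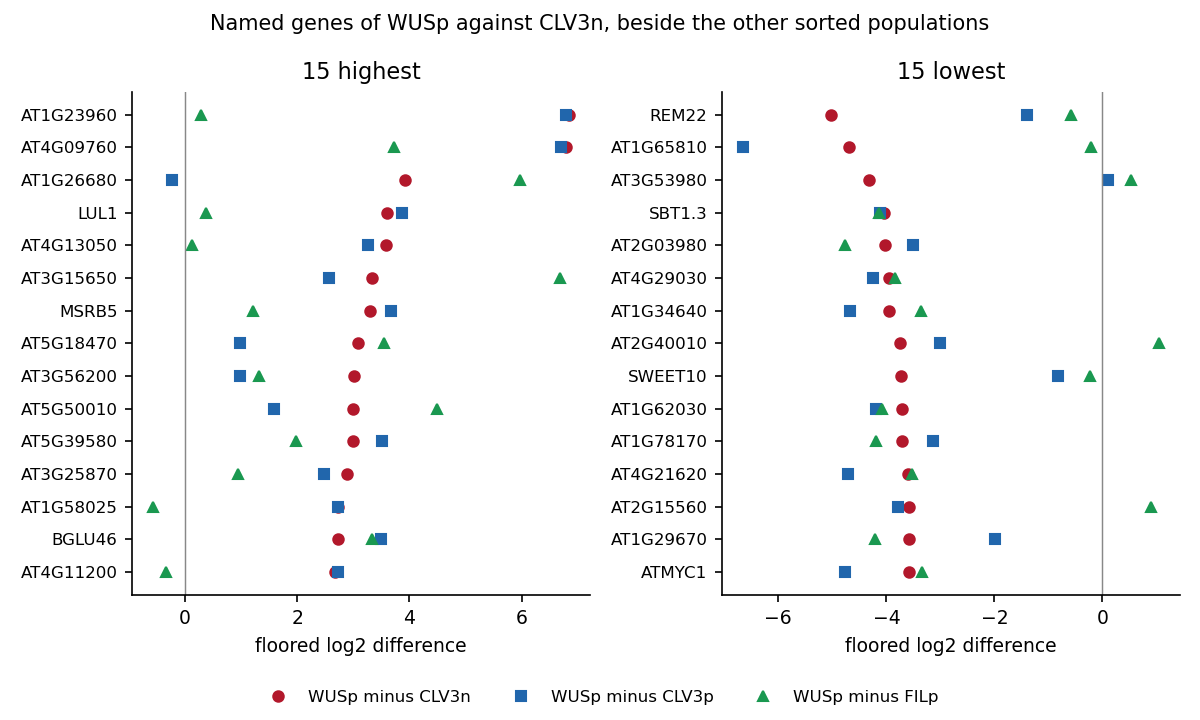
Floored log2 difference of WUSp from CLV3n (red circles), CLV3p (blue squares) and FILp (green triangles) for the 15 genes with the largest positive (left) and largest negative (right) values against CLV3n. AT1G23960 and LUL1 lie near 0 against FILp, AT1G26680 near 0 against CLV3p, and SBT1.3 and AT4G29030 near -4 against all 3.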

How the data were processed

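The authors deposited 1 table of MAS5 signal intensity, on a linear scale, for 22810 probe sets on 15 arrays, per the submitters' processing notes. Its 2nd-to-98th percentile trimmed mean is near 500 on each array. How CEL files were summarised beyond MAS5 is not given in the sources used here. Of these probe sets, 64 controls were left out. Log2 values of the 11 sorted arrays were fitted with limma 3.58.1 (R 4.3.3; lmFit, eBayes with trend and robust, Benjamini-Hochberg, threshold 0.05), with 15052 probe sets kept whose signal passed the 40th percentile of the array on 2 arrays or more. Floored values raise signals under 19.5, the 20th percentile of all values, to it. The gene table names 1 gene for 13513 probe sets, several for 503 and none for 8730, and the probe set with the highest mean represents a gene. Named genes are UFO, GTR2, CLV3, the 15 largest floored differences each way among called genes with arrays that do not overlap, and up to 4 called members per list and direction. IAA30, YUC2, YUC4, GH3.17, HMT-1, MGL and the members described as not called were named outside that rule, after their values were seen. Members and lists were chosen with earlier results of these data known. APS4 was added to the sulfur list after its value was seen, without which that list had 5 calls higher and none lower. Actin ratios at the ends of the transcript depend on the probe sets. CLV3n 1 and CLV3p 1 are highest by the pair used, chosen after another pair, by which the WUSp arrays are highest of the sorted ones, had been computed first.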

Additional observations from a re-analysis of the deposited data

How the results depend on the processing

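Of 156 genes followed through the 19 alternatives, some of them not described in this text, 143 were called. None of the 143 changed direction, and 58 kept their call in every alternative that tested them. The number of probe sets called was 1035 to 2649 on leaving out 1 array, with 371 to 1164 higher and 664 to 1485 lower. Leaving out WUSp 1 gave 1035 calls (371 higher, 664 lower) and leaving out WUSp 2 gave 1318 (501 higher, 817 lower), where the lone WUSp array is assumed to vary like the other groups. Median centring gave 1881 higher and 1182 lower. The other alternatives gave between 2269 calls (protoplasting calls removed) and 3962 (bioC batch block). Deviations of same-numbered arrays correlated at 0.00214 and -0.0614 for WUSp with CLV3n, -0.117 and -0.0889 for WUSp with FILp, and 0.346, 0.0445 and 0.347 for CLV3n with CLV3p, so the numbers were not taken to pair WUSp with CLV3n. With the replicate block, 3189 probe sets were called, 1420 higher and 1769 lower.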
